A study of Anas platyrhynchos with 18 samples.

Results

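The miR-181 family in the skin of the Pekin duck was followed through its 5 mature members: miR-181a-5p, miR-181b-5p, miR-181a-3p, miR-181b-1-3p and miR-181b-2-3p. They were taken by name, as every mature miRNA called miR-181 with a letter, and were 5 of the 353 miRNAs with a count. A further 5 names that begin with the same letters and go on with a digit (miR-1811 to miR-1816) are other miRNAs, were at a total of 0 or 1 count each, and were left out. Small RNA was sequenced from skin over the thoracic vertebrae of white Pekin ducks with no treatment, at 3 embryonic stages, day 11 (11EM), day 15 (15EM) and day 20 (20EM), and later at 3 ages of the hatched bird, 1 day (1DB), 4 weeks (4WK) and 10 weeks (10WK) of age. These stages run from the first follicles to the mature feather coat. The study made 3 libraries per stage. All were used here except 20EM replicate 2, for which no counts were among the data used. The 20EM stage thus rests on 2 libraries (replicates 1 and 3), and 8 libraries were from before hatch and 9 from after it. The sources used here do not state whether a library is 1 bird or a pool, so p-values measure only the spread between libraries.

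A miRNA hairpin can give a mature strand from each side, the 5p and the 3p arm. Usually a single arm is kept in the Argonaute complex and pairs with messenger RNAs through its seed, bases 2 to 8, while the opposite arm, the passenger, is mostly degraded. miR-181 is a conserved vertebrate family best known, from mouse, for setting the sensitivity of developing T cells to antigen and for its part in muscle differentiation. Its guide strand in most tissues is the 5p arm, and in vertebrate genomes the a and b hairpins lie side by side in clusters.

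The chicken mature sequences, against which the duck reads were matched, show why the arms have to be read apart. They are from the study's supplementary list of chicken miRNAs, with the seed in capitals, and the duck sequence may differ from them.
miR-181a-5p: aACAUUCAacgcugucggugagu
miR-181b-5p: aACAUUCAuugcugucgguggg
miR-181a-3p: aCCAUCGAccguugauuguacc
miR-181b-1-3p: uCACUGAAcaaugaaugcaac
miR-181b-2-3p: uCACUGAUcaaugaaugcaaa
Both 5p members carry the seed ACAUUCA, which no other of the 329 listed sequences had. Over the 22 positions that both 5p members have, they differ at 3, all outside the seed (A9U, C10U and A21G, counted from the 5′ end, with the base of miR-181a-5p first). The 3p members have 3 different seeds. miR-181b-1-3p and miR-181b-2-3p differ at 2 of 21 positions (A8U and C21A, with the base of miR-181b-1-3p first), A8U being within the seed. The 2 mismatches that the authors allowed were for removing other noncoding RNA. How a read that fits both miR-181b-1-3p and miR-181b-2-3p was assigned is not given in the sources used here. The split between these 2 members is therefore uncertain.

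The hairpins behind the members can be told apart only for the 3p arms. The deposited tables list miR-181a-5p under the hairpins mir-181a-1 and mir-181a-2, and each was given between 49.99% and 50.01% of its counts in every library. For miR-181b-5p, under mir-181b-1 and mir-181b-2, the share was between 49.9% and 50.1%. The 5p counts were therefore divided evenly and say nothing of which copy was transcribed. miR-181a-3p was listed under mir-181a-1 only, so the ratio of miR-181a-5p to miR-181a-3p sets the 5p reads of both copies against the 3p reads of 1 of them. The same holds for miR-181b-5p over miR-181b-1-3p, listed under mir-181b-1 only, and over miR-181b-2-3p, listed under mir-181b-2 only. None of these is a ratio of the arms of a single hairpin.

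The libraries held between 3072942 and 15839714 counts on miRNAs (median 7606084). Levels are given as CPM, counts scaled to a library total of 1000000 miRNA counts, so that each is a share of the miRNA counts, and 3 counts corresponded to between 0.189 and 0.976 CPM. Of the 7 skin markers fixed for the epithelium 6 were listed with counts, among them miR-205a and miR-203a, and these 6 had counts in all 17 libraries. Counts on miRNAs made up 54.2% ± 12.6 (SD, n = 8) of the clean reads before hatch and 20.4% ± 6.61 (SD, n = 9) after it, and 5 libraries (11EM replicate 3, 15EM replicates 1 and 2, 20EM replicate 3 and 4WK replicate 1) had a clean-read percentage over 98, against under 96 in the other 12. In bulk skin, fewer cells of a type and less of a miRNA per cell cannot be told apart.

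miR-181a-5p was among the most abundant miRNAs of the skin at every stage and was lower at 4WK and 10WK than before. By mean CPM over the 17 libraries it ranked 4 of 353, and within single libraries between 2 and 8. It was at 87736, 77796 and 94736 CPM at 11EM, at 79548, 74315 and 67609 CPM at 15EM, and at 96089 and 86375 CPM at 20EM. After hatch it was at 83543, 88244 and 98421 CPM at 1DB, at 55042, 46501 and 45832 CPM at 4WK, and at 49973, 45133 and 44510 CPM at 10WK. All 6 libraries of 4WK and 10WK lay below all 11 of the earlier stages. This split was not a tested comparison, and how many of all miRNAs separate at it was not counted. The 1DB libraries overlapped the embryonic ones, with 1DB replicate 3 the highest of all 17, so that the periods before and after hatch overlapped.

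miR-181b-5p, the other member with this seed, fell in CPM from each stage to the next up to 4WK. Its values were 26517, 31048 and 28291 CPM at 11EM, 20806, 20372 and 19083 CPM at 15EM, and 16402 and 12437 CPM at 20EM. They were 7886, 7846 and 8495 CPM at 1DB, 5080, 3961 and 2883 CPM at 4WK, and 3475, 3421 and 2956 CPM at 10WK. No neighbouring stages overlapped except 4WK and 10WK, though how often this holds among all miRNAs was not counted. The mean at 11EM was 8.71 times that at 10WK. Its rank within a library went from between 7 and 10 at 11EM to between 31 and 34 at 10WK.

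miR-181a-3p, the passenger arm of mir-181a-1, was lower from 20EM on. It was at 2079, 2479 and 2430 CPM at 11EM and at 2448, 2251 and 1919 CPM at 15EM, which overlapped, and at 1262 and 883 CPM at 20EM. At 1DB it was at 329.6, 320.7 and 324.3 CPM, at 4WK at 261, 279 and 294 CPM, and at 10WK at 209.9, 226 and 238 CPM. From 15EM on no neighbouring stages overlapped, though how often this holds among all miRNAs was not counted. The mean at 11EM was 10.4 times that at 10WK.

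The 3p arms of the b hairpins were the rarest members. miR-181b-1-3p was at between 45.8 and 52.1 CPM at 11EM, between 43.5 and 55.5 CPM at 15EM, and at 25.6 and 19.0 CPM at 20EM, and then between 3.62 and 7.27 CPM in all 9 libraries after hatch. miR-181b-2-3p was at between 19.2 and 22.9 CPM at 11EM, between 10.8 and 17.9 CPM at 15EM, at 6.84 and 7.99 CPM at 20EM, and between 0.727 and 2.56 CPM after hatch. These late values rest on few reads, between 15 and 45 counts per library for miR-181b-1-3p and between 3 and 17 for miR-181b-2-3p. The stages 1DB, 4WK and 10WK overlapped for both.

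**Figure D1:**
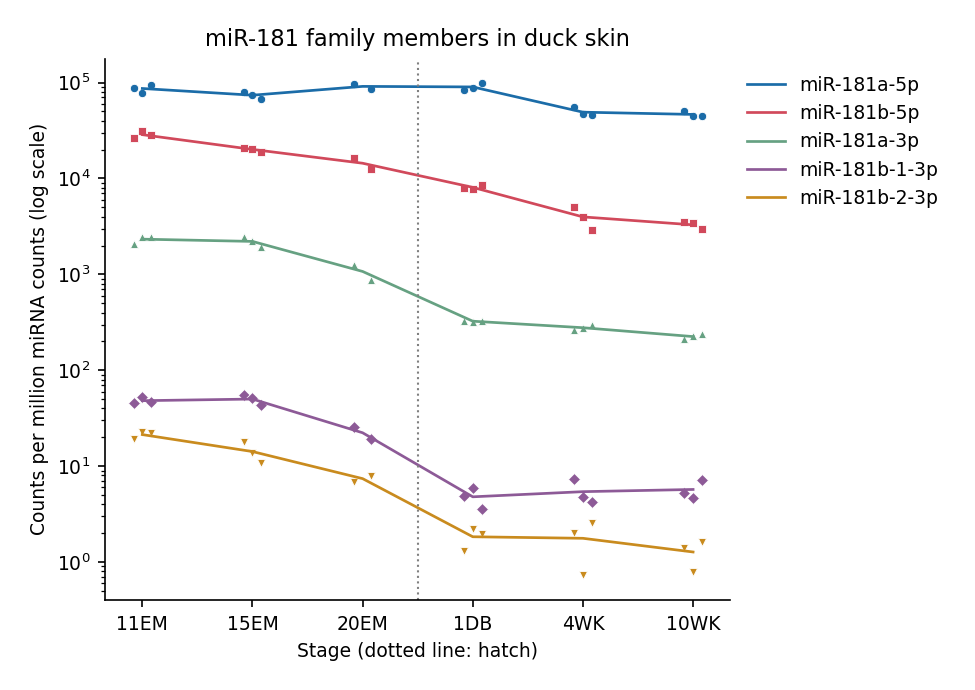
Level of each miR-181 member by stage, in CPM on a log axis; points are libraries and lines join the stage means. miR-181a-5p has stage means between 73824 CPM (15EM) and 91232 CPM (20EM) up to 1DB, and is lower at 4WK and 10WK. The stage means of miR-181b-5p fall throughout, and the 3p arms fall most between 15EM and 1DB.

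As a whole the family took 11.8% ± 0.716 (SD, n = 3) of the miRNA counts at 11EM, 9.62% ± 0.714 (n = 3) at 15EM, 10.7% ± 0.994 (n = 2) at 20EM and 9.85% ± 0.794 (n = 3) at 1DB. It then took 5.34% ± 0.613 (n = 3) at 4WK and 5.01% ± 0.317 (n = 3) at 10WK. The drop of the family total from 1DB to 4WK thus went with that of miR-181a-5p. At the earlier stages they differed, the mean of the total being highest at 11EM and that of miR-181a-5p at 20EM. miR-181a-5p made up 73.6% ± 3.23 of the family counts at 11EM and 93.0% ± 0.408 at 10WK (SD, n = 3 each). miR-181b-5p went from 24.4% ± 3.01 to 6.56% ± 0.415 of the family counts, and the 3 passenger arms together were a small remainder, of which miR-181a-3p held 1.98% of the family counts at 11EM and 0.451% at 10WK.

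The first question was which members changed across hatch. With edgeR's quasi-likelihood test over all 252 miRNAs tested, 4 of the 5 members were called lower after hatch and none higher, where 29.4% of all miRNAs tested were called lower. A call required an adjusted p (Benjamini-Hochberg) below 0.05 together with a 2-fold or larger change. The median log2 change was -2.49 over the 5 members and -0.16 over all miRNAs tested, the latter being the shift against which the changes are to be read. The log2 change was -1.90 (SE 0.11, edgeR adjusted p = 4.2e-10) for miR-181b-5p and -2.49 (SE 0.09, edgeR adjusted p = 9.4e-12) for miR-181a-3p. It was -2.63 (SE 0.15, edgeR adjusted p = 6.1e-10) for miR-181b-1-3p and -2.83 (SE 0.23, edgeR adjusted p = 2.4e-08) for miR-181b-2-3p. For all 4, every library after hatch lay below every library before it. How many of all miRNAs tested separate in this way was not counted, so this separation cannot be called particular to the members. miR-181a-5p had a log2 change of -0.30 (SE 0.07, edgeR adjusted p = 0.00163), short of the 2-fold threshold. Taken per clean read rather than per miRNA count, the median over all miRNAs was -1.78 and miR-181a-5p was at -1.90 and passed both thresholds. Whether the lower share of miRNA counts among the clean reads bears on these levels was not tested.

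Markers of other cells also moved across hatch. The 10 leukocyte names fixed list miR-155 and miR-223 each also under an arm name. Of these names 7 had counts and 6 were tested, and 5 were called higher in the later period (median log2 change over the list 2.15). Among those 5 were miR-223, a myeloid miRNA, and miR-142-5p, which blood cells in general express. Their summed level was between 16758 and 42172 CPM before hatch and between 14729 and 38915 CPM after it, and overlapped because miR-146c-5p, the marker that was not called, made up most of it. miR-155 had almost no counts. Of the 7 muscle markers, 3 were higher (miR-1b-3p, miR-133a-3p and miR-133c-3p, log2 changes 2.11, 1.70 and 1.22) and 1 lower (miR-206, -7.79). The muscle sums were between 459 and 14085 CPM before hatch and between 5233 and 15076 CPM after it. Of the 2 erythroid markers, miR-451 was higher (log2 change 2.77), while miR-144-3p had a log2 change of -0.41 (edgeR adjusted p = 0.048), short of 2-fold. Their summed level was between 1830 and 4289 CPM before hatch and between 9382 and 21235 CPM after it. Neither of the 2 endothelial markers was called, but both were higher after hatch, short of 2-fold. The log2 change was 0.73 for miR-126-5p (edgeR adjusted p = 1.6e-05) and 0.58 for miR-126-3p (edgeR adjusted p = 0.000998). Their sums were between 11290.2 and 24639 CPM before and between 19487 and 31093 CPM after. Of the 6 epithelial markers tested, 1 was called higher and 1 lower. The epithelial sums were between 21955 and 118963 CPM before and between 36358 and 87433 CPM after. Of the 4 mesenchymal markers 1 was called higher (miR-140-3p, log2 change 1.25), while the list had a median log2 change of -0.45. The others were lower but short of 2-fold. They were miR-199-3p (-0.69, edgeR adjusted p = 3.2e-06), miR-199-5p (-0.45, edgeR adjusted p = 0.00054) and miR-214 (-0.45, edgeR adjusted p = 0.00049). The sums were between 24965 and 64255 CPM before and between 22868 and 34886 CPM after. The part of these cells in the changes of the miR-181 members was not tested.

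Between successive stages the members fell at different steps. From 11EM to 15EM 0 of the 5 members were called, where 15.9% of all miRNAs tested were called lower. An unadjusted edgeR p under 0.05 was found for 3 of them, all lower at 15EM, and DESeq2 and limma also called 0. miR-181b-5p had the smallest adjusted p at this step, with a log2 change of -0.60 (SE 0.17, edgeR adjusted p = 0.0124).

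From 15EM to 20EM 2 members were called lower, where 9.92% of all miRNAs tested were. They were miR-181a-3p, with a log2 change of -1.02 (SE 0.16, edgeR adjusted p = 0.0015), and miR-181b-1-3p, with a log2 change of -1.14 (SE 0.28, edgeR adjusted p = 0.00926). Both lie close to the 2-fold threshold. An unadjusted edgeR p under 0.05 was found for all 5 members. The log2 changes not called were 0.33 for miR-181a-5p, -0.46 for miR-181b-5p and -0.90 for miR-181b-2-3p (edgeR adjusted p = 0.0817, 0.0998 and 0.0941). The change of miR-181a-3p was between -0.98 and -0.83 without any 1 of 11EM replicate 1, 11EM replicate 2, 11EM replicate 3, 15EM replicate 2, 20EM replicate 3, 1DB replicate 3, 4WK replicate 2 and 4WK replicate 3, and that of miR-181b-1-3p was between -0.99 and -0.96 without 6 of these (all but 11EM replicate 1 and 15EM replicate 2). In each of these fits the call was lost. When only the libraries of 15EM and 20EM were fitted, the changes were -0.87 and -0.99, and neither was called.

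From 20EM to 1DB, across hatch itself, all 3 passenger arms were called lower, where 17.1% of all miRNAs tested were. The log2 change was -1.47 (SE 0.15, edgeR adjusted p = 1.6e-05) for miR-181a-3p, -1.98 (SE 0.27, edgeR adjusted p = 7.2e-05) for miR-181b-1-3p and -1.74 (SE 0.39, edgeR adjusted p = 0.00252) for miR-181b-2-3p. These 3 calls remained in every fit that left out 1 library. The 5p arms were not called, with log2 changes of -0.58 (SE 0.19, edgeR adjusted p = 0.0246) for miR-181b-5p and 0.24 (SE 0.14, edgeR adjusted p = 0.172) for miR-181a-5p. Per clean read miR-181b-5p was called at this step (-1.55, edgeR adjusted p = 0.00548). The sign of the change of miR-181a-5p turned when libraries were scaled by their totals alone (-0.02).

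From 1DB to 4WK the 5p arms were called and the passenger arms were not, where 7.94% of all miRNAs tested were called lower. miR-181b-5p had a log2 change of -1.15 (SE 0.18, edgeR adjusted p = 0.000179). miR-181a-5p had a log2 change of -1.0 (SE 0.12, edgeR adjusted p = 2.8e-05), which lies on the 2-fold threshold itself, and on plain CPM the mean at 1DB was 1.83 times that at 4WK. Scaled by library totals alone its change was -0.87, and it was -0.97 without 11EM replicate 2, -0.98 without 11EM replicate 3, -0.83 without 1DB replicate 3, -0.94 without 4WK replicate 2 and -0.90 without 4WK replicate 3, none of which reached 2-fold. miR-181b-5p was also no longer called without 4WK replicate 3 (-0.91). The passenger arms had log2 changes of -0.35 (SE 0.14, edgeR adjusted p = 0.0709) for miR-181a-3p, 0.08 (SE 0.26, edgeR adjusted p = 0.839) for miR-181b-1-3p and -0.23 (SE 0.41, edgeR adjusted p = 0.688) for miR-181b-2-3p. Per clean read miR-181a-3p was called (-1.10, edgeR adjusted p = 0.0311).

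From 4WK to 10WK 0 of the 5 members were called, where 0.794% of all miRNAs tested were called lower, and 0 had an unadjusted edgeR p under 0.05. DESeq2 and limma also called 0. The log2 changes lay between -0.30 and 0.19. Over the 6 stages together all 5 members had an adjusted p under 0.05 in edgeR's F test, as did 84.9% of all miRNAs tested, with the smallest for miR-181a-3p (2.2e-10).

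**Figure D2:**
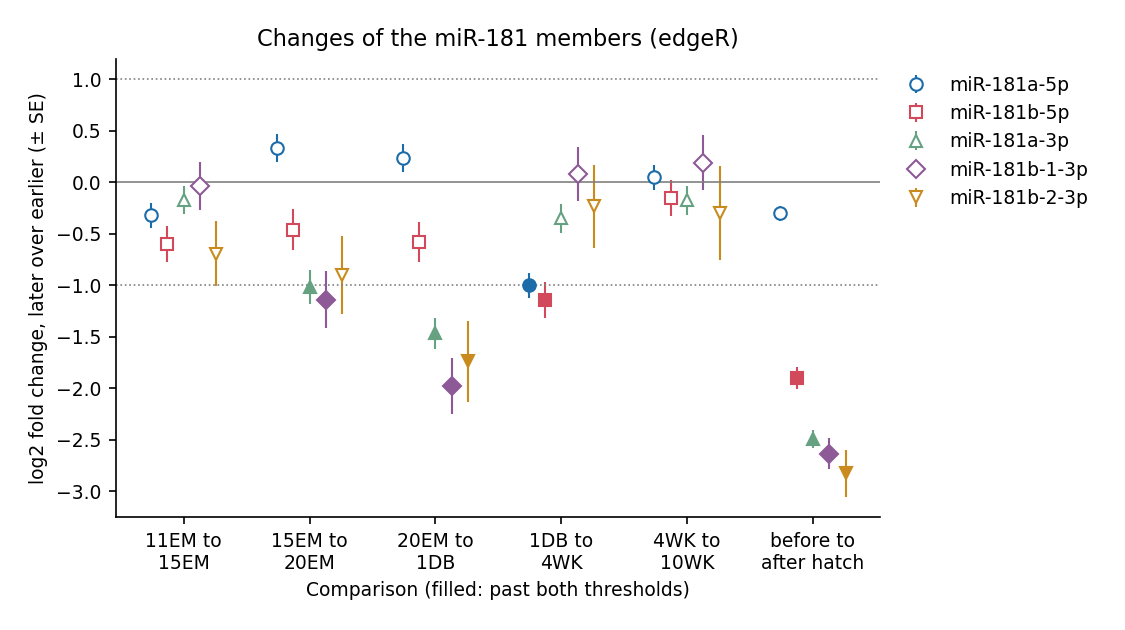
Log2 fold change of each miR-181 member (later over earlier stage, edgeR, bars ± SE) in the 5 successive comparisons and across hatch; filled symbols passed both thresholds and dotted lines mark 2-fold. All 3 passenger arms are called lower from 20EM to 1DB, and the 5p arms from 1DB to 4WK, where miR-181a-5p lies on the 2-fold line.

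The balance of the 2 members that share a seed moved from b towards a. There were 3.31, 2.51 and 3.35 counts of miR-181a-5p for each of miR-181b-5p in the 11EM libraries, and between 3.54 and 3.82 at 15EM. The ratio was 5.86 and 6.94 at 20EM and between 10.6 and 11.6 at 1DB. It was between 10.8 and 15.9 at 4WK and between 13.2 and 15.1 at 10WK. The lowest library after hatch was thus above the highest before it, and the stages 1DB and 4WK, and 4WK and 10WK, overlapped. On the log2 scale, with 1 CPM added to both members, the ratio was 1.97 ± 0.47 (SD, n = 8) before hatch. It was higher by 1.68 after hatch (3.21-fold), with a two-sided exact permutation p of 4.1e-05 over 24310 arrangements. The test exchanges single libraries, so libraries of 1 stage count as independent although the ratio also differed between stages within a period. An exact permutation test of 3 stages against 3 cannot go below p = 0.1.

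All 10 ratios between members were tested in this way, with p-values adjusted over the 10. The 4 ratios of miR-181a-5p to another member were each higher after hatch, without overlap. Each was at the smallest p that the permutations can give (adjusted p = 0.000103 in each exact test). The 4 share miR-181a-5p and set it against the members that fell without overlap above, so they are not separate results. How many ratios between other miRNAs separate in this way was not counted. With 1 CPM added they rose by 2.29 on the log2 scale against miR-181a-3p, by 2.24 against miR-181b-1-3p and by 2.07 against miR-181b-2-3p. The order of these sizes is not to be read, since 1 CPM is close to the level of miR-181b-2-3p after hatch. In edgeR the falls of these 3 members went the other way in size (-2.49, -2.63 and -2.83). Within the 12 libraries with a clean-read percentage under 96 (4 before and 8 after hatch) the 4 differences were between 1.82 and 2.33. Their p was the smallest that 495 arrangements can give (exact permutation p = 0.00202). That p was fixed in advance, since any subset of libraries that do not overlap gives it, so it is no further check. The ratio of miR-181b-5p to miR-181a-3p was higher by 0.60 after hatch (exact permutation test, adjusted p = 0.0169), but the periods overlapped. Its mean log2 value was 3.62 at 11EM, 3.19 at 15EM and 3.76 at 20EM. At 1DB the mean was 4.63, and it was 3.80 at 4WK and 3.86 at 10WK, so the higher level was mainly that of 1DB. Within those 12 libraries it differed by 0.49 (exact permutation test, adjusted p = 0.202). The ratio of miR-181b-5p to miR-181b-1-3p differed by 0.56 (adjusted p = 0.124) and that to miR-181b-2-3p by 0.39 (adjusted p = 0.211, both exact permutation tests), and both depend on the setting. With 0.1 CPM added they were 0.76 (adjusted p = 0.0249) and 0.95 (adjusted p = 0.0136), and with 10 CPM -0.44 (adjusted p = 0.106) and -1.09 (adjusted p = 0.000823, exact permutation tests). The 10 CPM is more than either 3p arm had in any library after hatch. With 1 CPM the first passed the threshold without 10WK replicate 3 (0.69, adjusted p = 0.0311) and the other without 4WK replicate 3 (0.53, adjusted p = 0.0438, exact permutation tests).

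Among the passenger arms no difference between the periods was detected with 1 CPM added, which did not hold with 10 CPM. The ratio of miR-181a-3p to miR-181b-1-3p, from different hairpins, had a log2 value of 5.503 ± 0.09 (SD, n = 8) before hatch and differed by -0.04 after it (exact permutation test, adjusted p = 0.793), while both members fell by more than 4-fold. In counts the ratio was between 43.9 and 52.1 before hatch and between 33.2 and 89.6 after it, where miR-181b-1-3p had at most 45 counts. The ratio of miR-181a-3p to miR-181b-2-3p differed by -0.22 (adjusted p = 0.247) and that of miR-181b-1-3p to miR-181b-2-3p by -0.17 (adjusted p = 0.418, both exact permutation tests). These 3 differences depend on the value added to low counts: with 0.1 CPM added they were 0.15, 0.35 and 0.20, none past the threshold. With 10 CPM they were -1.001, -1.66 and -0.66, each past it (exact permutation tests, adjusted p = 8.2e-05). After hatch miR-181b-1-3p reached at most 7.27 CPM and miR-181b-2-3p at most 2.56 CPM. The 10 CPM is above both, so these 3 differences cannot show a shift between the arms. Of the 3p counts of the b hairpins, mir-181b-1 gave 73.5% before hatch (4294 and 1547 counts, exact binomial interval at 95% from 72.4% to 74.6%) and 75.7% after it (253 and 81 counts, from 70.8% to 80.2%). The intervals overlap and cover counting error only. By stage the share was lowest at 11EM, at 69.3% (from 67.6% to 71.0%), and was 78.0% (from 76.2% to 79.6%) at 15EM.

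**Figure D3:**
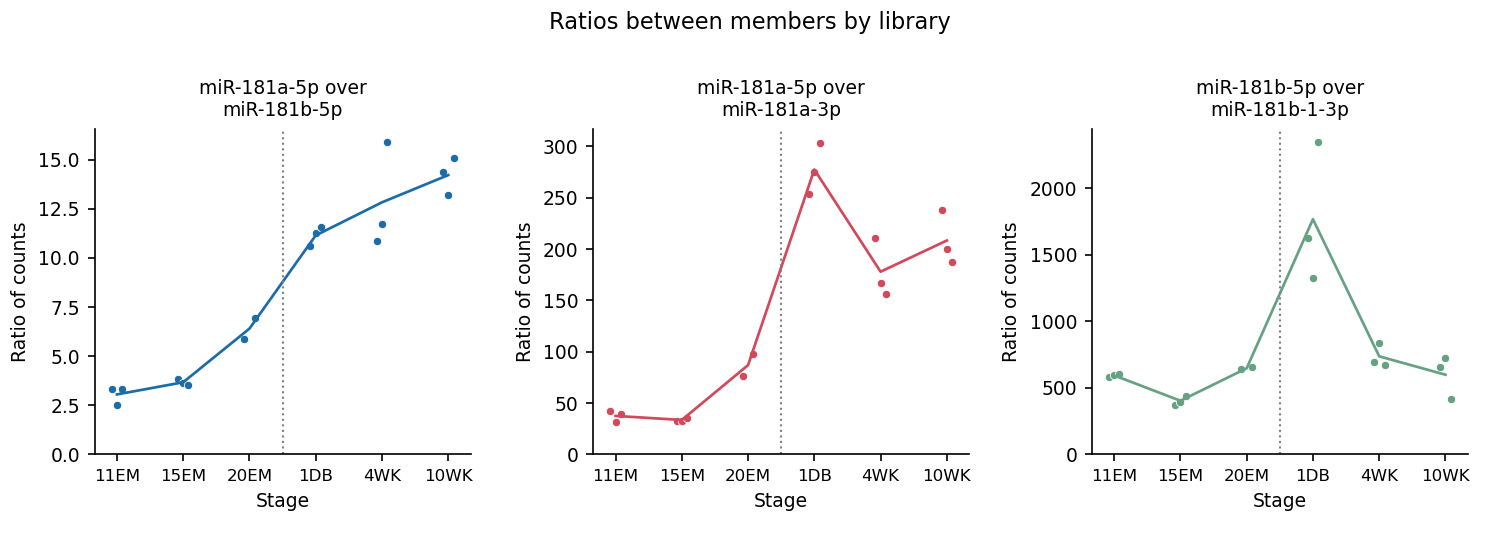
Ratio of counts between members in each library (points) with the stage means (lines), on linear axes from 0. miR-181a-5p over miR-181b-5p goes from between 2.51 and 3.35 at 11EM to between 13.2 and 15.1 at 10WK, while both ratios of a 5p to a 3p arm have their highest libraries at 1DB.

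The ratio of the arms was then set beside that of other hairpins. For miR-181a there were between 31.4 and 42.2 counts of the 5p arm for each of the 3p arm at 11EM, between 32.5 and 35.2 at 15EM, and 76.1 and 97.8 at 20EM. There were between 253 and 303 at 1DB, between 156 and 211 at 4WK and between 187 and 238 at 10WK. The arm ratio was thus highest at 1DB, where the 3p arm had fallen and the 5p arm had not. For miR-181b-5p over miR-181b-1-3p the ratio was between 375 and 655 before hatch, between 1326 and 2348 at 1DB, and between 413 and 838 at 4WK and 10WK.

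Of the 56 arm pairs with both arms at a mean of at least 10 CPM, 33.9% changed their log2 ratio by at least 1 across hatch with a limma adjusted p under 0.05 (9 towards the 5p arm and 10 towards the 3p arm). The miR-181a pair was among them, with a change of 2.18 towards the 5p arm (SE 0.11, limma adjusted p = 1.9e-12), and ranked 7 of 56 by size. The miR-181b-5p/miR-181b-1-3p pair changed by 0.53 (SE 0.12, limma adjusted p = 0.000649), less than 2-fold, and ranked 32. It was thus not called here either. This fit takes the spread within stages, whereas the exact permutation test above takes that between all libraries of a period. There the adjusted p of the same ratio was 0.124 (exact permutation test). With 10 CPM (more than miR-181b-1-3p had in any library after hatch) added to both arms the limma change of this pair turned to -0.45. miR-181b-2-3p, at a mean of 8.01 CPM, was below the minimum, and with a minimum of 1 CPM its pair differed by 0.36 (SE 0.18, limma adjusted p = 0.0863) among 88 pairs. Outside the family the largest changes were those of miR-100 (3.27 towards the 5p arm), miR-148a (-2.63) and miR-133a (-2.57, both towards the 3p arm).

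By step, 0 of the 2 pairs of the family were called from 11EM to 15EM, where 5.36% of the pairs were. The miR-181a arm ratio changed by 1.36 (SE 0.20, limma adjusted p = 0.000104) from 15EM to 20EM, where 21.4% of the pairs were called, and by 1.68 (SE 0.20, limma adjusted p = 2.9e-06) from 20EM to 1DB, where 28.6% were. From 1DB to 4WK it changed by -0.65 (SE 0.18, limma adjusted p = 0.0466), less than 2-fold. The miR-181b-5p/miR-181b-1-3p ratio changed by 1.19 (SE 0.23, limma adjusted p = 0.000271) from 20EM to 1DB and by -1.20 (SE 0.20, limma adjusted p = 0.000732) from 1DB to 4WK. The latter was the only pair of the 56 called at that step (1.79%). It rests on few reads, as miR-181b-1-3p had between 30 and 45 counts per library at 1DB and between 15 and 36 at 4WK. How this step depends on the value added to both arms is not given here.

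**Figure D4:**
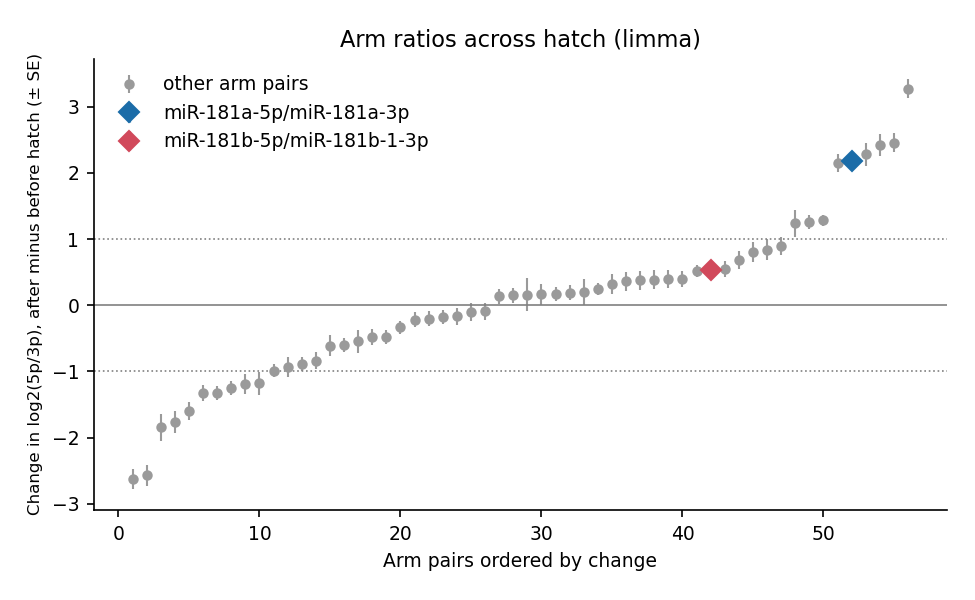
Change in log2(5p/3p) across hatch for the 56 arm pairs, ordered by change (limma, bars ± SE; dotted lines mark 2-fold). The miR-181a pair, at 2.18, is among the largest changes towards the 5p arm, and the miR-181b-5p/miR-181b-1-3p pair, at 0.53, is within 2-fold.

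The patterns of the members over the 17 libraries were compared by Pearson's r of log2 TMM-normalised CPM, as a description, since the libraries share stages and depth. The 3 passenger arms had r between 0.96 and 0.97 with each other, and miR-181b-5p between 0.88 and 0.94 with them. miR-181a-5p had r of 0.68 with miR-181b-5p and between 0.30 and 0.42 with the passenger arms. Outside the family, the miRNAs most like miR-181b-5p were miR-130b-3p and miR-130a-3p (r = 0.98 each) and miR-130b-5p (r = 0.97). Those most like miR-181a-3p were miR-17-5p (r = 0.98), miR-100-3p (r = 0.98) and miR-1805-3p (r = 0.97), and those most like miR-181b-1-3p were miR-107-3p, miR-301a-5p and miR-148a-5p (r = 0.97 each). The nearest to miR-181a-5p were less close, with r of 0.85 for miR-218-5p, 0.84 for miR-383-5p and 0.84 for miR-455-5p.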

How the data were processed

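The authors trimmed small RNA reads (18 nt or longer), removed those matching other noncoding RNA with up to 2 mismatches, matched the rest to chicken miRBase 21, and deposited counts of reads per hairpin and mature arm for each library, without normalization. Here counts were added over hairpins per mature name, and 17 libraries were grouped by the stage and replicate in their labels; 20EM replicate 2 was not used here. Duck genome positions of the hairpins are not given in the sources used here. Intervals and limits cover counting error only.

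The test between stages was edgeR's quasi-likelihood test (version 4.0.16, R 4.3.3) with TMM factors and 6 stage groups in 1 fit, for 252 miRNAs that reached 1 CPM in 2 or more libraries. Arm ratios, log2((5p CPM + 1)/(3p CPM + 1)), were fitted with limma 3.58.1, and ratios between members were tested by two-sided exact permutation over libraries (numpy 2.4.6, python 3.11.15). Functions were tested on simulated data. Alternatives were DESeq2 1.42.0, limma on log2(CPM + 1), other scalings and filters, the replicate number as a block, clean-read class, other pseudocounts and leaving out each library. Counts of exactly matching reads were not used here. The clean-read totals are from the study's supplement.

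Named were the members, the fixed marker lists, the 3 miRNAs most like each member whose mean reached 10 CPM, and the 3 other arm pairs with the largest change. The members and lists were chosen with earlier results of these data known.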

Additional observations from a re-analysis of the deposited data

How the results depend on the processing

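Of the 125 values of the members across hatch under an alternative, 124 kept their direction and call. The exception was miR-181a-5p per clean read, and the 23 values of the miR-181a arm ratio and the 80 of the ratios of miR-181a-5p all kept theirs. Most of these 80 come from leaving out libraries, which could not change the outcome because these ratios did not overlap between the periods. They also share miR-181a-5p, so the 80 are not separate checks. From 15EM to 20EM the 2 members called became 1 with DESeq2 or with no filter, 0 with a stricter filter (10 CPM or more in 3 libraries) or with the compared stages alone, and between 0 and 2 leaving out 1 library. From 1DB to 4WK the 2 became 1 with limma, library totals or no filter, and between 0 and 2 leaving out 1 library. Libraries with the same replicate number were on average no more alike than others (mean correlation of deviations -0.03 over 40 pairs with the same number and 0.02 over 80 others). These averages cannot show whether the numbers mark a batch. With the replicate block 1 member was called from 1DB to 4WK, miR-181a-5p being at -0.998, and no other call of a member changed. Calls gained between stages were those per clean read, of miR-181b-5p from 20EM to 1DB (-1.55) and of miR-181a-3p from 1DB to 4WK (-1.10). The cause of these differences was not tested.

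Several log2 changes that were not called turned sign. From 11EM to 15EM miR-181b-1-3p (-0.04) was 0.0053 with DESeq2, 0.051 with limma, 0.057 with library totals, 0.19 per clean read, 0.21 with no filter, 0.12 with the stricter filter, 0.19 with the compared stages alone and between -0.080 and 0.23 leaving out 1 library. miR-181a-3p (-0.17) was 0.046 per clean read, 0.078 with no filter, 0.057 with the compared stages alone and between -0.21 and 0.089 leaving out 1 library. miR-181a-5p was -0.18 per clean read at 20EM against 15EM. At 1DB against 20EM it was -0.020 with limma, -0.018 with library totals and -0.68 per clean read. From 1DB to 4WK miR-181b-1-3p was -0.63 per clean read and between -0.20 and 0.26 leaving out 1 library, and miR-181b-2-3p between -0.52 and 0.19. From 4WK to 10WK miR-181a-5p was -0.075 with limma, -0.078 with library totals, -0.055 with no filter, -0.050 with the stricter filter and between -0.082 and 0.15 leaving out 1 library. There miR-181b-5p and miR-181a-3p were 0.062 and 0.055 per clean read, and leaving out 1 library gave between -0.42 and 0.075 for miR-181b-5p and between -0.030 and 0.47 for miR-181b-1-3p.

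Ratios with a rare 3p arm moved with the pseudocount. With 10 CPM the arm ratio of miR-181b-5p to miR-181b-1-3p changed by -0.45. Among the exact tests, 0.1 and 10 CPM gave 0.76 and -0.44 for miR-181b-5p over miR-181b-1-3p, 0.95 and -1.09 over miR-181b-2-3p, 0.15 and -1.001 for miR-181a-3p over miR-181b-1-3p, 0.35 and -1.66 over miR-181b-2-3p, and 0.20 and -0.66 between the b passengers. In libraries under 96 percent clean reads miR-181b-5p over miR-181a-3p differed by 0.49 and miR-181a-3p over miR-181b-1-3p by 0.017. Leaving out 1 library gave between 0.40 and 0.69, between 0.27 and 0.53, and between -0.13 and 0.032 for the ratios of miR-181b-5p to miR-181b-1-3p, of miR-181b-5p to miR-181b-2-3p and of miR-181a-3p to miR-181b-1-3p.

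Of all miRNAs, 3 were called from 4WK to 10WK, against 11 with DESeq2, 5 with limma, library totals or the stricter filter, and 0 per clean read, and 127 across hatch, against 198 per clean read. Leaving out 1 library gave between 1 and 16 from 4WK to 10WK and between 17 and 42, in place of 35, from 15EM to 20EM. Counting only exactly matching reads was not run.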
